A study of Homo sapiens with 8 samples.

Results

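ISG15 is a small ubiquitin-like protein that is attached to other proteins by its own chain of enzymes, and 6 genes of that system were followed here: ISG15 itself, the activating enzyme UBA7, the conjugating enzyme UBE2L6, and the ligases HERC5, HERC6 and ARIH1. The 6 genes were taken by symbol, and all of them were found among the 22627 gene symbols of the deposited tables. They were measured by RNA sequencing in NB4, a human acute promyelocytic leukaemia cell line with the PML-RARA fusion gene, which takes on granulocyte features when given all-trans retinoic acid (ATRA). The 8 samples form 4 groups of 2: cells with a lentiviral short hairpin RNA against the transcription factor TFEB given 1 µM ATRA for 72 h (shTFEB ATRA), cells with that hairpin given ethanol for 72 h (shTFEB vehicle), and cells with a scrambled hairpin given ATRA (shScr ATRA) or ethanol (shScr vehicle). All 4 groups therefore carry a lentiviral hairpin, and how many hairpin sequences, clones or transductions stand behind a line is not given in the sources used here. Although the labels speak of biological replicates, each deposited table gives a single value for a transcript model in a whole group, as FPKM, the fragments mapped to a model scaled to its length and to the library's depth. No spread between samples could be computed and nothing was tested, so every difference below is a difference between groups without a replicate check. Genes are said to rise or fall where the log2 ratio, taken after adding 1 FPKM to each level, was 1 or more in either direction. This 2-fold mark was applied to the 11052 genes that averaged 1 FPKM or more. All 6 members were among those genes.

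As background, ISG15 is made as a precursor and activated by UBA7, an E1 enzyme known from promyelocytic leukaemia cells, under the name UBE1L, as a retinoid-induced gene. UBA7 passes ISG15 to the E2 enzyme UBE2L6, from which the E3 ligase HERC5 attaches it to target proteins in human cells. HERC6 is a close relative of HERC5 and the chief ISG15 ligase of mice. ARIH1 is a ubiquitin ligase of the RING-between-RING class that is also reported to attach ISG15. The protease USP18 removes ISG15 again and also restrains the type I interferon receptor. ISG15, UBA7, UBE2L6, HERC5, HERC6 and USP18 are known as interferon-stimulated genes, which are switched on by a factor that holds STAT2 and IRF9 through a DNA element called the interferon-stimulated response element (ISRE).

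Promoter sequences are shown for ISG15 and HERC5, whose windows hold the ISRE core, and for HERC6, which lies next to HERC5 in the genome and whose window does not. Each is the 250 bases before a gene start listed by RefSeq on GRCh38.p14, on the plus strand. The windows lie at chr1:1013247-1013496 for ISG15, chr4:88456869-88457118 for HERC5 and chr4:88378602-88378851 for HERC6. The hg19 models of HERC6 and HERC5 start at 89299891 and 89378268, which is further apart than these 2 windows. Part of the HERC6 window may therefore lie after the start of the measured HERC6 model. Capitals mark the ISRE core, GAAA then any 2 bases then GAAA, read on either strand.
ISG15: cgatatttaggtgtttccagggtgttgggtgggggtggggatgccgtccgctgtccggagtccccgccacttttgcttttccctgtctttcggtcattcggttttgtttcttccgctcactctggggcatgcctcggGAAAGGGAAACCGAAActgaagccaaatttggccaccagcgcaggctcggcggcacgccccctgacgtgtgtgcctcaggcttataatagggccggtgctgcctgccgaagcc
HERC5: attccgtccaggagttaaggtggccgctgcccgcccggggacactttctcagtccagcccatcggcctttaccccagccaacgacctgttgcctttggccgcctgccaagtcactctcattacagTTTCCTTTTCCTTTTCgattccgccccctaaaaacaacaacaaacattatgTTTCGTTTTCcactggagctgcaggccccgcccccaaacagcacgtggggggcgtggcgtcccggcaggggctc
HERC6: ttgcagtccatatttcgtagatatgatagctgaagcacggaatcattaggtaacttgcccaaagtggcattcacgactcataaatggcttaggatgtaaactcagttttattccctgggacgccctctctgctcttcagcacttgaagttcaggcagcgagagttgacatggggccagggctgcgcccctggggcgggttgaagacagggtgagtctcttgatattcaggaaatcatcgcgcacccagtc
The ISG15 window holds 2 overlapping matches, and the HERC5 window holds 3, of which 2 overlap, all on its minus strand. Of 35116 RefSeq promoter windows of the same length, 3.02% hold at least 1 match. The windows of UBE2L6, which has 2 listed starts, and of ARIH1 hold none. The letters TTCNNNGAA (the element of interferon gamma, present in 6.57% of windows) and the retinoid receptor half-sites AGGTCA (12.1%) and GGTTCA (7.16%) were searched on both strands as well, and no window of these 5 genes holds them. UBA7 has no window in the promoter set used, so its promoter was not searched. A match is a description of the letters and not a binding site.

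The groups were first checked against their labels. TFEB stood at 8.44 FPKM in shTFEB ATRA and 19.4 FPKM in shScr ATRA, a 2.30-fold lower level in shTFEB cells. In vehicle it stood at 1.35 FPKM in the group labelled shTFEB and 1.20 FPKM in the group labelled shScr. The bounds of these low values overlap, at 1.11 to 1.63 FPKM and 0.928 to 1.52 FPKM. TFEB mRNA thus did not show the lower level that the label of the shTFEB vehicle group implies. This group is called labelled shTFEB vehicle below. Sequencing depth relative to shScr vehicle, read from the upper bounds of models at 0, was 0.911 for shTFEB ATRA, 1.17 for labelled shTFEB vehicle and 1.05 for shScr ATRA, and the absolute depth is not given in the sources used here. Of 10 myeloid markers, 9 were at or above 1 FPKM in each group, and ELANE, the neutrophil elastase gene, was listed at 0 in 3 groups and at 0.0456 FPKM in labelled shTFEB vehicle.

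Markers moved with ATRA as well. In each line 4 of the 9 compared myeloid markers rose (CEBPE, SPI1, ITGAM and CYBB) and 4 fell (MPO, PRTN3, AZU1 and CEBPA), where 11.5% of all compared genes rose and 10.5% fell in shTFEB cells, and 12.5% rose and 15.2% fell in shScr cells. None of the 9 passed the mark between the lines under ATRA. ITGAM, an integrin gene of maturing myeloid cells, passed it between the vehicle groups, with 5.63 FPKM in labelled shTFEB vehicle and 2.18 FPKM in shScr vehicle (log2 ratio 1.06), and its difference of responses was −1.66. The summed level of 10 lymphoid genes was higher with ATRA, at 134 FPKM in shTFEB ATRA and 40.2 FPKM in labelled shTFEB vehicle, and at 190 FPKM in shScr ATRA and 40.1 FPKM in shScr vehicle. Most of each sum was NKG7, at 111, 26.4, 168 and 23.6 FPKM in the same order. Only 3 of the 10 genes reached 1 FPKM in each ATRA group, and 5 in each vehicle group. NKG7 and CD79A rose in both lines (log2 ratios from 2.03 to 2.78), CD3D and CD79B fell in both, and CD2 and MS4A1 stayed at or below 0.00825 FPKM. Over 10 erythroid and megakaryocytic genes the sum was 4.01 FPKM in shTFEB ATRA, 2.89 FPKM in labelled shTFEB vehicle, 2.04 FPKM in shScr ATRA and 2.32 FPKM in shScr vehicle. In that list HBB and HBA1 were at 0, while the megakaryocyte integrin gene ITGA2B stood at 2.75 FPKM in shTFEB ATRA and 0.521 FPKM in shScr ATRA (log2 ratio 1.30). ITGA2B was also higher in labelled shTFEB vehicle than in shScr vehicle, at 0.770 and 0.177 FPKM (log2 ratio 0.59). Over 10 epithelial, stromal and endothelial genes the sums lay between 29.6 and 36.2 FPKM, with KRT19, COL1A2 and DCN at 0. KRT8 stood at 4.71 FPKM in shTFEB ATRA and 3.32 FPKM in shScr ATRA, and was listed at 0 in both vehicle groups. PECAM1 stood at 8.23 FPKM in shTFEB ATRA and 2.25 FPKM in labelled shTFEB vehicle, and at 8.59 FPKM in shScr ATRA and 1.56 FPKM in shScr vehicle. Their part in the results was not tested. In bulk RNA, fewer cells with a transcript and less of it per cell cannot be told apart.

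The modifier gene had the highest level of the 6 in both ATRA groups. ISG15 (hg19 chromosome 1, 948847 to 949919, 1 model) stood at 529 FPKM in shTFEB ATRA and 9.62 FPKM in labelled shTFEB vehicle, and at 61.0 FPKM in shScr ATRA and 8.65 FPKM in shScr vehicle. Both vehicle groups were thus close together, and shTFEB ATRA stood far above shScr ATRA. The deposited bounds of ISG15 do not enclose its FPKM in any group (363 to 378 in shTFEB ATRA, 6.13 to 7.79 in labelled shTFEB vehicle, 40.9 to 45.5 in shScr ATRA and 5.44 to 7.20 in shScr vehicle). The midpoints of those bounds gave folds close to those of the FPKM, 8.58 against 8.67 for shTFEB ATRA over shScr ATRA.

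UBA7, the E1 enzyme (chromosome 3, 49842638 to 49851391, 1 model), stood at 47.1 FPKM in shTFEB ATRA and 4.36 FPKM in labelled shTFEB vehicle. In shScr cells it stood at 32.1 FPKM with ATRA and 4.47 FPKM with vehicle. Both ATRA groups were high and both vehicle groups low, with little distance between the lines. UBE2L6, the E2 enzyme (chromosome 11, 57319128 to 57335803, 2 models), stood at 153 FPKM in shTFEB ATRA and 1.08 FPKM in labelled shTFEB vehicle. In shScr cells UBE2L6 stood at 22.8 FPKM with ATRA and 0.122 FPKM with vehicle, the lowest value of any member in any group. UBE2L6 was also the member whose vehicle levels lay furthest apart: 8.90-fold higher in labelled shTFEB vehicle than in shScr vehicle, with summed bounds of 0.790 to 1.38 and 0.0486 to 0.225 FPKM that do not overlap.

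The ligase genes fell into 2 kinds. HERC5 (chromosome 4, 89378268 to 89427319, 1 model) stood at 58.4 FPKM in shTFEB ATRA and 3.97 FPKM in labelled shTFEB vehicle, and at 6.96 FPKM in shScr ATRA and 4.66 FPKM in shScr vehicle. Only shTFEB ATRA stood apart, the other 3 groups lying between 3.97 and 6.96 FPKM. HERC6 (chromosome 4, 89299891 to 89364249, 2 models) stood at 32.9 FPKM in shTFEB ATRA and 0.695 FPKM in labelled shTFEB vehicle. In shScr cells HERC6 stood at 5.53 FPKM with ATRA and 0.955 FPKM with vehicle, so that shScr ATRA took a middle place. ARIH1 (chromosome 15, 72766667 to 72878896, 1 model) stood at 16.1 FPKM in shTFEB ATRA, 16.6 FPKM in labelled shTFEB vehicle, 12.6 FPKM in shScr ATRA and 15.1 FPKM in shScr vehicle. Its 4 values lay within a narrow band, unlike those of the other members.

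**Figure D1:**
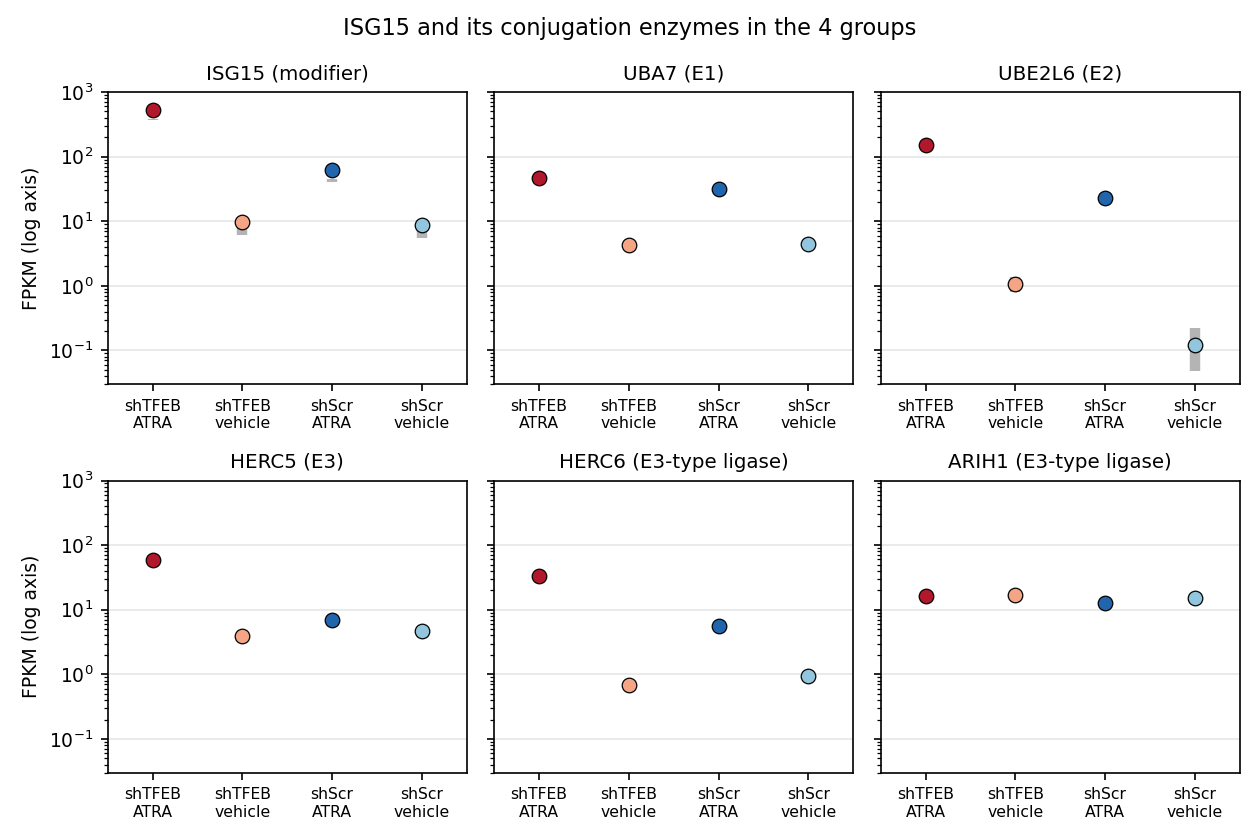
Level of each member (FPKM, log axis) in the 4 groups, 1 deposited value per group as a dot; grey bars are the deposited lower and upper bounds, summed over models. ISG15 stands at 529 FPKM in shTFEB ATRA against 61.0 FPKM in shScr ATRA, and ARIH1 stays between 12.6 and 16.6 FPKM.

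ATRA was accompanied by higher mRNA of the whole system except ARIH1 in shTFEB cells. Of the 6 members 5 rose against labelled shTFEB vehicle and none fell, where 11.5% of all compared genes rose and 10.5% fell. The median log2 ratio of the members was 3.95, and that of all genes −0.13. UBE2L6 rose 142-fold (log2 ratio with the added 1 FPKM 6.21, place 32 of 11052 genes ranked from the largest rise), ISG15 55.0-fold (5.64, place 52) and HERC6 47.3-fold (4.32). HERC5 followed with 14.7-fold (3.58) and UBA7 with 10.8-fold (3.16). ARIH1 had a log2 ratio of −0.04, which turned to 0.10 after median-of-ratios rescaling, and its bounds overlapped between the groups. The same 5 members passed the mark when shScr vehicle was put in place of labelled shTFEB vehicle, a setting chosen after the data were seen.

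In shScr cells the response was smaller for most members, and HERC5 did not pass the mark. Of the 6 members 4 rose and none fell, where 12.5% of all compared genes rose and 15.2% fell. The members' median log2 ratio was 2.17 and that of all genes −0.15. UBE2L6 stood first again, 187-fold higher with ATRA than with vehicle (log2 ratio 4.41 with the added 1 FPKM). ISG15 rose 7.05-fold (2.68), UBA7 7.18-fold (2.60) and HERC6 5.78-fold (1.74). HERC5 was 1.49-fold higher (0.49), with bounds of 6.30 to 7.13 and 4.18 to 4.91 FPKM that do not overlap. ARIH1 had a log2 ratio of −0.24. The rise of HERC6 did not reach the mark with a pseudocount of 5 FPKM (0.82). Among all genes 1384 rose and 1676 fell, and median-of-ratios rescaling, which shifted the median of all genes by 0.15, turned this into 1612 and 1256. It shifted that median by 0.13 in shTFEB cells.

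The lines were then set against each other. With ATRA in both lines, 4 of the 6 members passed the mark upwards in shTFEB against shScr cells and none was lower, where 2.67% of all compared genes were higher and 1.58% lower. ISG15 was 8.67-fold higher (log2 ratio 3.10, place 48 of 11052), HERC5 8.39-fold (2.90), UBE2L6 6.74-fold (2.70) and HERC6 5.95-fold (2.38). UBA7 was 1.47-fold higher (0.54) and ARIH1 1.28-fold (0.33), both short of the mark. The members' median was 2.54 and that of all genes 0.06.

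Between the vehicle groups no member passed the mark in either direction (1.06% of all genes were higher in labelled shTFEB vehicle and 0.787% lower). The log2 ratios ran from −0.21 for HERC6 to 0.89 for UBE2L6. The added 1 FPKM draws the low UBE2L6 levels together: with a pseudocount of 0.1 FPKM its log2 ratio was 2.42, and without one 3.15.

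The difference of the responses, the log2 ratio in shTFEB cells minus that in shScr cells, reached 1 for 4 of the 6 members (2.42% of all genes were that much higher, 1.86% that much lower). It stood at 3.09 for HERC5, 2.96 for ISG15 and 2.58 for HERC6. For UBE2L6 it was 1.81 but depended on the added FPKM: 0.33 with a pseudocount of 0.1 FPKM and −0.40 without one, since its fold was 142 in shTFEB and 187 in shScr cells. UBA7 had 0.57 and ARIH1 0.20. These differences share their ATRA groups with the comparison of the lines under ATRA. The size of each difference was not tested, as each rests on 4 single values.

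**Figure D2:**
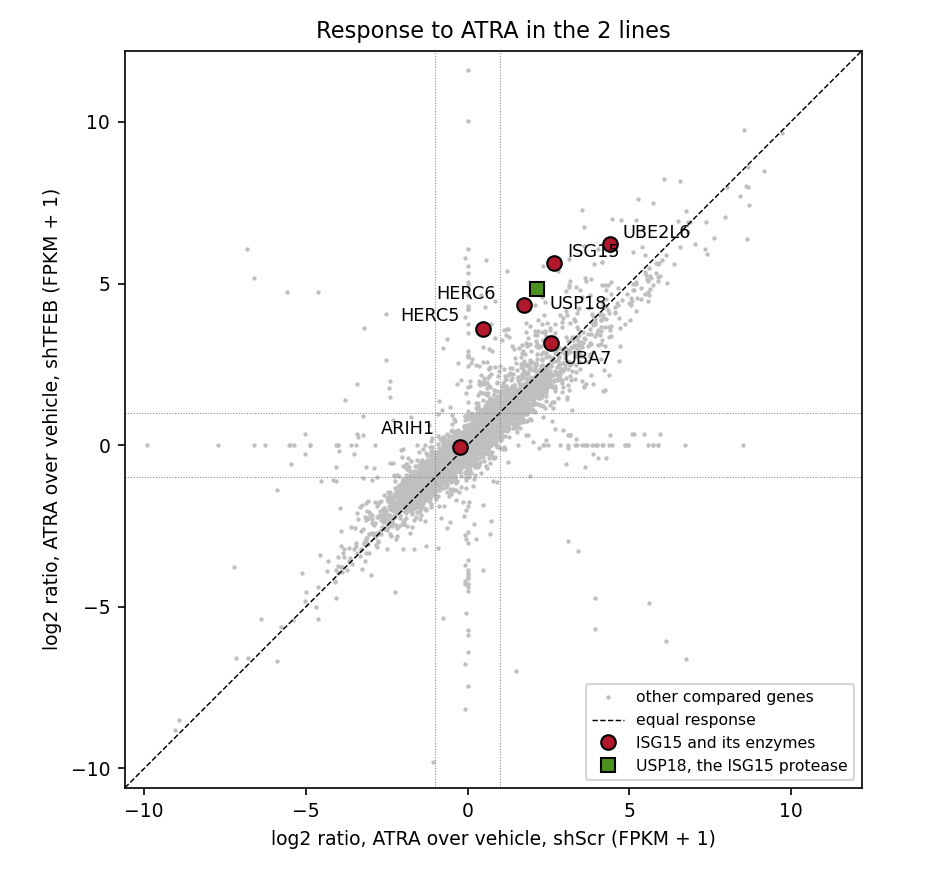
Log2 ratio of ATRA over vehicle (FPKM + 1) in shScr cells on the horizontal and in shTFEB cells on the vertical axis, 1 point per compared gene, with the members in red and USP18 as a green square; the dashed line marks equal responses and dotted lines the 2-fold mark. UBA7 (2.60 and 3.16) lies near the line, while HERC5 (0.49 and 3.58) lies far above it.

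The order of the levels changed with treatment. FPKM is scaled to length, so levels of different genes can be set side by side, but only roughly. The FPKM of ISG15 lies above its upper bound in every group, at 529 against 378 FPKM in shTFEB ATRA. Its share of the members and its ratios to other genes may therefore be too high. Smaller excesses over the upper bound occur for UBA7 in shTFEB ATRA (47.1 against 46.7 FPKM) and shScr ATRA (32.1 against 31.9 FPKM). HERC5 in shTFEB ATRA (58.4 against 56.8 FPKM) and ARIH1 in labelled shTFEB vehicle (16.64 against 16.61 FPKM) have them too. So does USP18 in shTFEB ATRA (93.9 against 87.3 FPKM) and shScr ATRA (12.9 against 12.6 FPKM). In shTFEB ATRA the order was ISG15, UBE2L6, HERC5, UBA7, HERC6 and ARIH1, and the bounds of no 2 neighbours overlapped. In shScr ATRA it was ISG15, UBA7, UBE2L6, ARIH1, HERC5 and HERC6, again without overlap between neighbours. ARIH1 came first in both vehicle groups, followed by ISG15, and the bounds of UBA7 and HERC5 overlapped in both. ISG15 mRNA made up 63.2% of the summed level of the 6 members in shTFEB ATRA, 26.5% in labelled shTFEB vehicle, 43.3% in shScr ATRA and 25.5% in shScr vehicle. The sums were 837 and 36.4 FPKM in shTFEB cells and 141 and 33.9 FPKM in shScr cells.

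The ratio of the modifier to each enzyme changed by very different amounts between the groups. ISG15 mRNA stood at 11.2 times the UBA7 level in shTFEB ATRA and 2.21 times in labelled shTFEB vehicle, but at 1.90 times in shScr ATRA and 1.94 times in shScr vehicle. In shScr cells the ratio of ISG15 to its E1 enzyme was thus nearly the same with and without ATRA. Against HERC5 the ratio was close in both ATRA groups, 9.07 in shTFEB and 8.77 in shScr cells, and lower in both vehicle groups, 2.42 in labelled shTFEB vehicle and 1.86 in shScr vehicle. Against USP18 it stood at 5.64 in shTFEB ATRA, 4.17 in labelled shTFEB vehicle, 4.74 in shScr ATRA and 4.0 in shScr vehicle. Against UBE2L6 the ratio moved the other way, at 3.45 in shTFEB ATRA and 8.89 in labelled shTFEB vehicle, and 2.68 in shScr ATRA and 71.2 in shScr vehicle. The value of 71.2 rests on a UBE2L6 level of 0.122 FPKM, with bounds of 0.0486 to 0.225 FPKM. Against HERC6 the ratio of ISG15 moved less, at 16.1 in shTFEB ATRA and 13.8 in labelled shTFEB vehicle, and 11.0 in shScr ATRA and 9.06 in shScr vehicle. Against ARIH1 it was 32.9 in shTFEB ATRA and 0.578 in labelled shTFEB vehicle, and 4.84 in shScr ATRA and 0.573 in shScr vehicle. HERC5 mRNA was 3.62 times that of ARIH1 in shTFEB ATRA, 0.239 times in labelled shTFEB vehicle, 0.551 times in shScr ATRA and 0.308 times in shScr vehicle.

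At the level of models, ISG15, UBA7, HERC5 and ARIH1 have 1 each. The UBE2L6 models NM_004223 and NM_198183 share an end and differ in their start. NM_004223 stood at 153 FPKM in shTFEB ATRA, 0.943 FPKM in labelled shTFEB vehicle, 20.2 FPKM in shScr ATRA and 0.122 FPKM in shScr vehicle. NM_198183 was listed at 0 in shTFEB ATRA and in shScr vehicle, at 0.139 FPKM in labelled shTFEB vehicle and at 2.52 FPKM in shScr ATRA. NM_004223 thus held all UBE2L6 signal in shTFEB ATRA and shScr vehicle and most of it in the other groups, and the division between overlapping models is an estimate of the authors' software. All HERC6 signal lay in NM_017912, since NM_001165136 was listed at 0 in every group.

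USP18, which takes ISG15 off its targets, followed ISG15 closely. It stood at 93.9 FPKM in shTFEB ATRA and 2.31 FPKM in labelled shTFEB vehicle, and at 12.9 FPKM in shScr ATRA and 2.16 FPKM in shScr vehicle. Its log2 ratios were 4.84 with ATRA in shTFEB cells, 2.13 in shScr cells and 2.77 between the lines under ATRA. USP18 has a near-identical copy in the genome, USP41, with which it may share reads, so its level is uncertain. Of the 5 ubiquitin proteases also reported to react with ISG15, 4 could be compared and none rose: USP13 fell in shTFEB cells (log2 ratio −1.24, 2.30 against 6.82 FPKM) and USP14 in shScr cells (−1.06, 15.5 against 33.3 FPKM). Over all compared genes 11.5% rose and 10.5% fell in shTFEB cells, and 12.5% rose and 15.2% fell in shScr cells. Such counts among 4 genes are therefore near the background. TRIM25, another ligase reported for ISG15, rose in shTFEB cells, to 65.4 FPKM with ATRA against 18.4 FPKM with vehicle, and had 33.4 and 21.4 FPKM in shScr cells. The integrin genes ITGAL and ITGB2, whose product LFA-1 is a reported receptor of secreted ISG15, rose in both lines. ITGB2 stood at 354 FPKM in shTFEB ATRA and 40.6 FPKM in labelled shTFEB vehicle, and at 463 FPKM in shScr ATRA and 43.4 FPKM in shScr vehicle.

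Related enzymes of other ubiquitin-like systems were examined in lists of the same kind. Under ATRA none of the 4 other HERC genes, 9 other E1 enzyme genes, 10 E2 genes, 10 compared RING-between-RING ligase genes or 14 compared genes of ubiquitin and other ubiquitin-like modifiers passed the mark between shTFEB and shScr cells. Only 2.67% of all compared genes were higher and 1.58% lower, so a count of 0 in lists of this size is near the background. The lists' median log2 ratios were −0.06, 0.12, 0.14, 0.13 and 0.12, and that of all genes was 0.06. UBE2L3, the nearest relative of UBE2L6, stood at 41.9 FPKM in shTFEB ATRA and 48.3 FPKM in labelled shTFEB vehicle, and at 33.5 FPKM in shScr ATRA and 46.3 FPKM in shScr vehicle. With ATRA in shTFEB cells NAE1, a subunit of the NEDD8-activating enzyme, fell (−1.18), RBCK1, a subunit of the linear ubiquitin ligase, rose (1.21), and the autophagy modifier gene MAP1LC3B rose (1.01). In shScr cells HERC1 and HERC3 rose (1.11 and 1.14), NAE1, SAE1 and UBA2 fell (−1.76, −1.08 and −1.07), and ATG7 rose (1.09). UBE2D1 rose in shScr cells (1.09), UBE2N and UBE2T fell (−1.07 and −1.05), and GABARAP and MAP1LC3B rose (1.07 and 1.02). Many of these lie near the mark: after median-of-ratios rescaling 0 E2 genes in place of 2 fell in shScr cells, and 2 HERC genes in place of 0 rose in shTFEB cells.

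**Figure D3:**
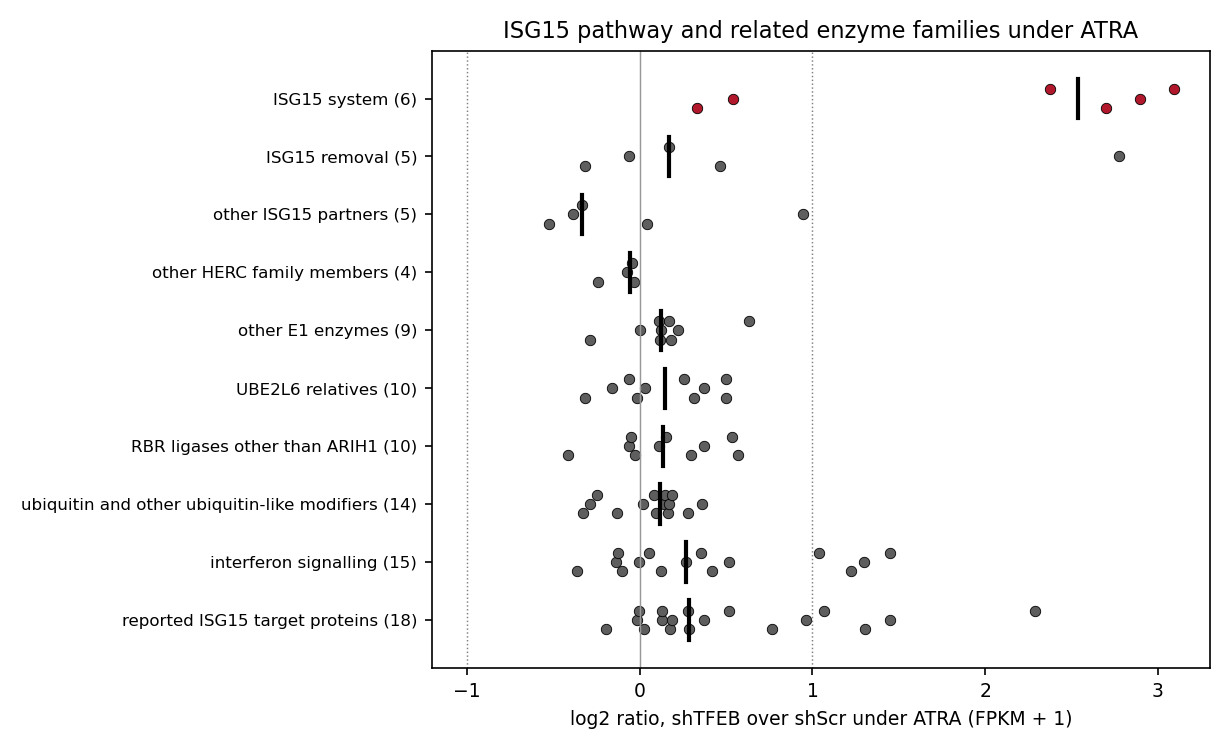
Log2 ratio of shTFEB over shScr cells under ATRA (FPKM + 1) for the compared genes of 10 lists, 1 point per gene, with the list's median as a black bar, the number of genes in brackets and dotted lines at the 2-fold mark. The ISG15 system has 4 of 6 genes between 2.38 and 3.10, and USP18 (2.77) is the right-most point of the ISG15 removal list.

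Interferon genes themselves were at the edge of detection. None of 21 ligand genes averaged 1 FPKM or more, so none was compared. Of these, 16 were listed above 0 in shTFEB ATRA and 5 in labelled shTFEB vehicle, against 9 in shScr ATRA and 5 in shScr vehicle. Several lay barely above 0, such as IFNA7 at 0.0118 FPKM and IFNL2 at 0.0133 FPKM in shTFEB ATRA. A value above 0 is thus not a clear detection. Summed, the 21 genes came to 3.95 FPKM in shTFEB ATRA, 0.248 FPKM in labelled shTFEB vehicle, 0.916 FPKM in shScr ATRA and 0.440 FPKM in shScr vehicle. IFNB1, the interferon beta gene, stood at 0.754 FPKM in shTFEB ATRA and was listed at 0 in labelled shTFEB vehicle, with 0.135 FPKM in shScr ATRA and 0.0202 FPKM in shScr vehicle. IFNA8 stood at 0.557 FPKM in shTFEB ATRA and 0.110 FPKM in shScr ATRA. IFNA1 (0.814 and 0.223 FPKM) and IFNA13 (1.13 and 0.306 FPKM) are almost the same in sequence and may share fragments, which makes the value of either one uncertain. IFNG was listed at 0 throughout. The part of these levels in the ISG15 result was not tested.

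**Figure D4:**
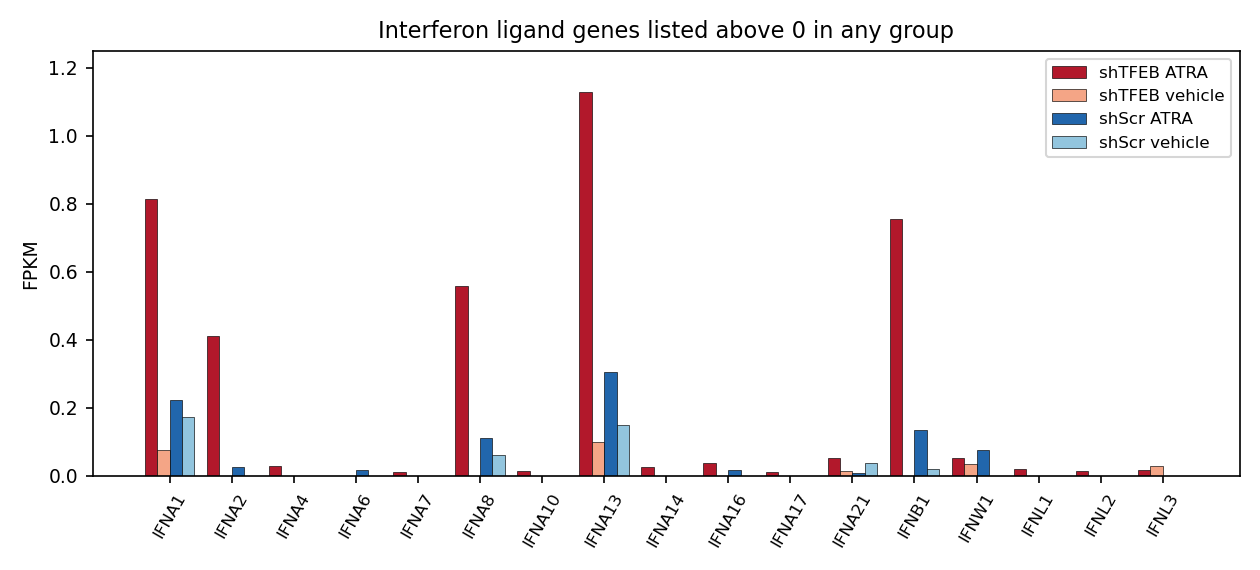
FPKM of the interferon ligand genes listed above 0 in at least 1 group, with 1 bar per group and no replicate error available. The bars of shTFEB ATRA reach 1.13 FPKM (IFNA13) and 0.754 FPKM (IFNB1), and those of the other groups stay at or below 0.306 FPKM.

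Genes of interferon signalling rose with ATRA in both lines, 12 of 15 in shTFEB cells and 11 of 15 in shScr cells, and none fell. Of all compared genes, 11.5% rose and 10.5% fell in shTFEB cells, and 12.5% rose and 15.2% fell in shScr cells. Their median log2 ratios were 1.61 and 1.74. Between the lines under ATRA, genes higher in shTFEB cells included STAT2 (1.30, 93.1 against 37.2 FPKM), IRF7 (1.22, 59.9 against 25.1 FPKM) and SOCS1 (1.04, 3.15 against 1.02 FPKM). IRF9, the partner of STAT2, stood at 42.9 FPKM in shTFEB ATRA and 33.4 FPKM in shScr ATRA, against 2.90 FPKM in labelled shTFEB vehicle and 1.92 FPKM in shScr vehicle. Like UBA7, IRF9 was high in both ATRA groups. The receptor genes IFNAR1 and IFNAR2 had log2 ratios of 0.12 and 0.27 between the lines under ATRA.

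Genes whose proteins are reported to carry ISG15 were mixed. Of 18, 7 rose with ATRA in shTFEB cells and none fell, and 5 rose and 1 fell in shScr cells. The shares over all compared genes were 11.5% and 10.5% in shTFEB cells, and 12.5% and 15.2% in shScr cells. The RNA sensor gene RIGI led, at 178 FPKM in shTFEB ATRA and 5.99 FPKM in labelled shTFEB vehicle, and at 35.6 FPKM in shScr ATRA and 6.81 FPKM in shScr vehicle. Genes that passed the mark upwards between the lines with ATRA included RIGI, EIF2AK2 and MX1 (log2 ratios of 2.29, 1.30 and 1.07). These are known as interferon-stimulated genes as well. PML, a partner in the fusion gene of these cells, stood at 32.9 FPKM in shTFEB ATRA and 14.8 FPKM in labelled shTFEB vehicle (log2 ratio 1.10), and at 19.0 FPKM in shScr ATRA and 13.4 FPKM in shScr vehicle (0.47). RARA had log2 ratios of 0.40 and 0.42 in shTFEB and shScr cells.

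Genes with the nearest pattern were found by the distance between log2(FPKM + 1) profiles over the 4 groups, each centred on its own mean, among 10422 genes. Nearest to ISG15 were the interferon-stimulated genes RSAD2 (distance 0.257), EPSTI1 (0.394) and CMPK2 (0.599), and nearest to UBE2L6 were IFIT2, OASL and IFIT3 (0.564 to 0.679). GBP1, GMPR and FGL2 came nearest to HERC5 (0.282 to 0.448). HERC6 was nearest to CYP4F3, FCGR2B and RIGI (0.258 to 0.431), UBA7 to VSIG4, SPHK1 and ABHD2 (0.118 to 0.187), and ARIH1 to INO80, SLC11A2 and HDAC8 (0.0145 to 0.0239). With 4 values per profile such likeness is a description of these groups. The added 1 FPKM also draws low levels together, so near profiles can have unlike folds. GBP1, for example, stood at 13.1 FPKM in shTFEB ATRA and 0.0539 FPKM in labelled shTFEB vehicle, and at 0.686 FPKM in shScr ATRA and 0.0203 FPKM in shScr vehicle. In shScr cells HERC5 stood at 6.96 FPKM with ATRA and 4.66 FPKM with vehicle, only 1.49-fold apart. EPSTI1, near ISG15, stood at 7.92 FPKM in shScr ATRA and 0.00438 FPKM in shScr vehicle, where ISG15 rose 7.05-fold.

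Neighbouring genes on the chromosome varied in their pattern. HERC5 and HERC6 are neighbours, 14019 bases apart. PIGY, 14810 bases beyond HERC5, stood at 50.9 FPKM in shTFEB ATRA and 53.1 FPKM in labelled shTFEB vehicle, and at 38.1 FPKM in shScr ATRA and 60.2 FPKM in shScr vehicle. PPM1K, on the other side of HERC6, was higher in shTFEB ATRA than in shScr ATRA, at 5.95 and 2.39 FPKM (log2 ratio 1.04). INKA1, 175 bases from UBA7, moved the other way: it fell in both lines, with 1.79 FPKM in shTFEB ATRA against 9.69 FPKM in labelled shTFEB vehicle, and 1.75 FPKM in shScr ATRA against 8.68 FPKM in shScr vehicle. AGRN, after ISG15, stood at 4.30 FPKM in shTFEB ATRA and 6.04 FPKM in labelled shTFEB vehicle, and at 1.49 FPKM in shScr ATRA and 4.09 FPKM in shScr vehicle. It was thus higher in shTFEB ATRA than in shScr ATRA (log2 ratio 1.09), as ISG15 was, but lower with ATRA than with vehicle in each line (−0.41 in shTFEB and −1.03 in shScr cells). TRAIP, on the other side of UBA7, stood at 5.32 FPKM in shTFEB ATRA and 9.79 FPKM in labelled shTFEB vehicle, and at 5.23 FPKM in shScr ATRA and 10.1 FPKM in shScr vehicle. Both neighbours of UBE2L6 were low but highest in shTFEB ATRA, as UBE2L6 was. SMTNL1 stood at 0.937 FPKM in shTFEB ATRA, 0.00758 FPKM in labelled shTFEB vehicle, 0.153 FPKM in shScr ATRA and 0 in shScr vehicle. SERPING1 stood at 0.307 FPKM in shTFEB ATRA and 0.00762 FPKM in shScr ATRA, and was listed at 0 in both vehicle groups. HES4, before ISG15, and TMEM202 and GOLGA6B, beside ARIH1, stayed at or below 0.112 FPKM in all 4 groups.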

How the data were processed

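FPKM values and their lower and upper bounds were deposited by the authors as 1 table per group of 65986 transcript models. The submitters' processing notes name TopHat, Cufflinks, Cuffdiff and hg19; the tools' versions and how the 2 samples of a group were combined are not given in the sources used here. Symbols came from a RefSeq table of GRCh38.p14, used for names alone (39841 of 41159 RefSeq accessions matched, 96.8%). For each symbol the FPKM and bounds of its models were added up with Python 3.11.15 and pandas 2.3.3, without further normalisation, and coordinates are hg19, counted from 1. FPKM keep no count that could be recovered here, so precision is limited by depth and is known only through the deposited bounds, which enclose 78.7% to 81.2% of well-measured models and were used as deposited.

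Log2 ratios were taken after adding 1 FPKM. None of the 5 comparisons could be tested, as each group has a single value. The calculation was tested on simulated data with counting noise alone, at an assumed depth and without variation between samples. That run checks the arithmetic and cannot show how reliable the 2-fold mark is in these data. The members, the 11 gene lists and the 4 marker lists were chosen with earlier results of these data known. Named genes were the members, USP18, TFEB, up to 4 list genes past the mark per list and comparison, the 3 nearest patterns and the neighbours of each member; other genes named were chosen after their values were seen. Alternatives were 2 other pseudocounts, 2 other filters, 2 rescalings, the highest model, only models of status OK, and a call by non-overlapping bounds; midpoints of the bounds, no pseudocount, and shScr vehicle in place of labelled shTFEB vehicle were added after the data were seen. Wild-type NB4 cells were not analysed here. Some genes of the lists are not reported here.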

Additional observations from a re-analysis of the deposited data

How the results depend on the processing

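The number of members past the 2-fold mark stayed within 1.5 times of the reported count in 54 of 56 recalculations over 12 alternatives. The exception was shTFEB against shScr under vehicle, where 0 members became 1 (UBE2L6) with a pseudocount of 0.1 FPKM and 1 without a pseudocount. Of 336 recalculated log2 ratios of members, 331 kept their side of the mark. Part of this agreement was fixed in advance. Every member averaged at least 10.0 FPKM and all member models have status OK. The 2 other filters and the status setting therefore could not change any member, nor could the highest model change members with 1 model. The difference of responses of UBE2L6, 1.81 as reported, became −0.40 without a pseudocount, because the added FPKM outweighs its vehicle level of 0.122 FPKM. Counts over all genes moved more. A pseudocount of 5 FPKM gave 795 higher and 582 lower genes with ATRA in shTFEB cells (1270 and 1159 as reported), 873 and 949 in shScr cells (1384 and 1676), 170 and 101 between the lines under ATRA (295 and 175), 70 and 48 under vehicle (117 and 87) and 126 lower genes for the difference of responses (206). A mean of at least 5 FPKM gave 110 lower genes under ATRA, 67 higher and 52 lower under vehicle, and 127 lower for the difference. Intervals that do not overlap gave 72 and 50 under vehicle, and 211 and 199 higher genes were found there with a pseudocount of 0.1 FPKM and with none. No paired analysis was possible because each group has 1 deposited value, and for the same reason no replicate could be left out.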
